A study of Mus musculus with 9 samples.

Results

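The nucleotides described here are the A and C residues at positions 1 to 100 of mouse 5′ untranslated regions (5′ UTRs), counted from the first base of the transcript in the deposited table's numbering. That base is taken as the cap end, since the cap sites used in these cells were not examined. They were taken as every table entry with base A or C and a position of 100 or below, which gave 819 of 16187 A and C entries. They comprised 278 A and 541 C on 32 amplicons of 30 transcripts, 29 of which could be named. A and C at positions 101 to 300 of the same transcripts, 3667 entries, served as the comparison. Because 23 positions were read by 2 overlapping amplicons, 22 of them in Chd2 and 1 in Ctcf, the 819 entries stand for 796 distinct positions.

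A eukaryotic mRNA carries a methylated guanosine cap at its 5′ end. The cap-binding complex recruits the helicase eIF4A, which uses ATP to open structure near the cap so that the small ribosomal subunit can load and scan to the start codon. Stable hairpins placed close to the cap are known to hinder that loading more than the same hairpins placed further downstream. Dimethyl sulfate (DMS) methylates the base-pairing face of A and C where it is not paired or otherwise shielded, and the reverse transcriptase reads the methylated base as a mutation, so a high signal marks an accessible base.

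The samples were E14TG2a cells, a feeder-independent mouse embryonic stem cell line, in 3 groups of 3 samples that the labels call independent. Untreated cells stood at 37 °C for 6 min with 1.6% DMS, in a buffer of 250 mM bicine. ATP-depleted cells had the same DMS treatment after 10 min in glucose-free medium with 10 mM 2-deoxyglucose, which blocks glycolysis, and 10 mM sodium azide, which blocks respiration. The third group was RNA refolded in vitro, outside the cells, and the labels do not give its DMS conditions. The assay read 250 nt amplicons of conserved 5′ UTRs, and the labels name no transgene or genetic change in any group. The background mutation signal of each base is not known, since DMS-free samples were not analysed here.

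Values are in CPM, mutation counts per 1000000 counts of the same amplicon and sample, so they show how the signal was spread along an amplicon and not its total strength. Untreated samples totalled 9746013 to 12116137 counts, ATP-depleted samples 11260434 to 12616275, and the in vitro ones 5743965 to 10530190. The 32 amplicons had a median of 32718 counts per library in untreated cells, 34464.5 after ATP depletion and 17119.5 in vitro. In vitro, the amplicons of Senp3, Eed and D830031N03Rik fell below 1000 counts in their shallowest library, at 235, 478 and 695 counts. Counts of amplified cDNA are not independent molecules, and their counting error understates the true error. Across the 819 nucleotides, replicates correlated at 0.770 to 0.878 (Pearson, on the log2 scale) in untreated cells, 0.853 to 0.908 after ATP depletion and 0.675 to 0.794 in vitro.

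Primer sites at the amplicon ends were not read. The first position read was 17 in the best case, 36.5 in the median amplicon and 96 in the worst, so the nucleotides next to the cap are not among the 819. The numbering could be checked where the RefSeq promoter table (GRCm38.p6) had an entry. In 12 amplicons, 280 of 280 compared bases matched the stretch that follows the RefSeq start, with position 1 at the first transcribed base. By this match the Mapk6 transcript began on chromosome 9 at 75410016 on the minus strand, that of Tulp4 on chromosome 17 at 6138148 on the plus strand and that of Ehbp1 on chromosome 11 at 22286795 on the minus strand. Ppm1b began on chromosome 17 at 84958001 on the plus strand, and Rnf10 on chromosome 5 at 115272895 on the minus strand. All the nucleotides lie in the 5′ part of these transcripts, which the study chose as 5′ UTR.

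Sequences are shown for stretches that held called changes between RNA in cells and refolded RNA and are described below, and, in Chd2 and Azin1, for nucleotides with the lowest p after ATP depletion. They are as in the deposited table, 5′ to 3′, with T for U, and capitals mark the measured nucleotides described in most detail below.
Ptp4a2 68 to 95: cgcCtcCtcgctCccgCctcCgcCggcc
Ctcf 78 to 97: cgaCcAgcAgcAgccggtgc
Ddx6 30 to 58: accgAgggtgcggagCgggagtggcctCg
Hexim1 83 to 98: ctCCggcCCggcctga
Mapk6 79 to 99: gcacagccggAgacctgagcc
Tulp4 83 to 100: cagtgggggaAagagtga
Sertad2 68 to 83: ccgggCgtccactccg
Ehbp1 24 to 39: ccAgcagggatggagg
Chd2 33 to 53: tgccttagagAgagcgcgctt
Azin1 78 to 98: ccttctcgctCtgctgctctg

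The cap-proximal sequence held fewer A and more G and C than the sequence that follows. A made up 33.9% of the A and C entries, against 39.6% at positions 101 to 300 and 42.3% in the whole table. In 18 complete 60 nt blocks covering positions 41 to 100, GC content was 66.4% ± 9.95 (SD over blocks). It was 61.1% in 75 blocks of positions 101 to 300 of the same transcripts and 57.8% in all 333 later blocks. The triplet GGG was found in 14 of the 18 cap-proximal blocks (77.8%), in 62.7% of the 75 and in 59.2% of the 333, all on the transcript strand. CCC did not follow the same order, with 55.6% of the 18, 61.3% of the 75 and 60.7% of the 333. The triplet ATG, the letters of a start codon, was found in 4 of the 18 (22.2%), in 32% of the 75 and in 41.1% of the 333. With 18 blocks these shares are a description only.

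In untreated cells the cap-proximal A and C had a slightly lower signal than the downstream ones, and the difference lay with C. The median cap-proximal reactivity of a sample was 5918, 5865 and 5958 CPM in the 3 untreated samples, a mean of 5913 ± 46.8 (SD, n = 3), against 6556 ± 162 CPM at positions 101 to 300. Cap-proximal C had medians of 4568, 4063 and 4070 CPM, a mean of 4234 ± 290 CPM (SD, n = 3), against 5038 ± 112 CPM for downstream C. The ratio of these C medians was 0.841 ± 0.0759 (SD, n = 3), below 1 in each untreated sample. For A the ratio was 0.992 ± 0.0132 (SD, n = 3), from 8536 ± 349 CPM near the cap and 8611 ± 403 CPM downstream.

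The same held in the other groups, with a smaller gap in vitro. The C ratio was 0.838 ± 0.0338 (SD, n = 3) after ATP depletion and 0.906 ± 0.0438 (SD, n = 3) in vitro, and the range of the in vitro samples, 0.856 to 0.933, overlapped that of the untreated ones, 0.792 to 0.929. Within the first 100 positions, A reacted 2.02 ± 0.136 times as strongly as C in untreated cells, 2.25 ± 0.177 times after ATP depletion and 2.50 ± 0.156 times in vitro (SD of the ratio of medians, n = 3 each). Every in vitro sample had a higher A to C ratio than every untreated sample. Downstream the ratio showed the same order, at 1.71 ± 0.0749 in untreated cells, 1.81 ± 0.0582 after ATP depletion and 2.24 ± 0.102 in vitro (SD, n = 3 each), again with every in vitro sample above every untreated one.

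The neighbouring bases separated strong from weak C. Of cap-proximal C with both neighbours read, 225 (42.2%) stood between bases that were each G or C, and their median was 3547 ± 261 CPM in untreated cells (SD, n = 3). The 69 C between A or T on both sides had a median of 6100 ± 168 CPM (SD, n = 3), above the other class in each of the 3 samples. In vitro the same classes had medians of 2994 ± 59.6 and 6420 ± 276 CPM (SD, n = 3 each). Downstream C were separated likewise, at 4144 ± 94.9 CPM for 878 C between G or C and 6727 ± 218 CPM for 377 between A or T in untreated cells (SD, n = 3 each). These medians pool amplicons, and 2461 of the 3664 tested downstream A and C lie in the same amplicons as the cap-proximal ones. Within each class of matched neighbours, the pooled median of cap-proximal C was lower than that of downstream C, without overlap between the untreated samples. In vitro this held for C between G or C, with 3639 ± 60.5 CPM downstream, and not for C between A or T, with 5959 ± 232 CPM downstream (SD, n = 3 each). For A the classes lay closer, at 8538 ± 217 CPM for 123 A between G or C and 9192 ± 1070 CPM for 33 A between A or T in untreated cells (SD, n = 3 each), with overlapping samples.

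**Figure D1:**
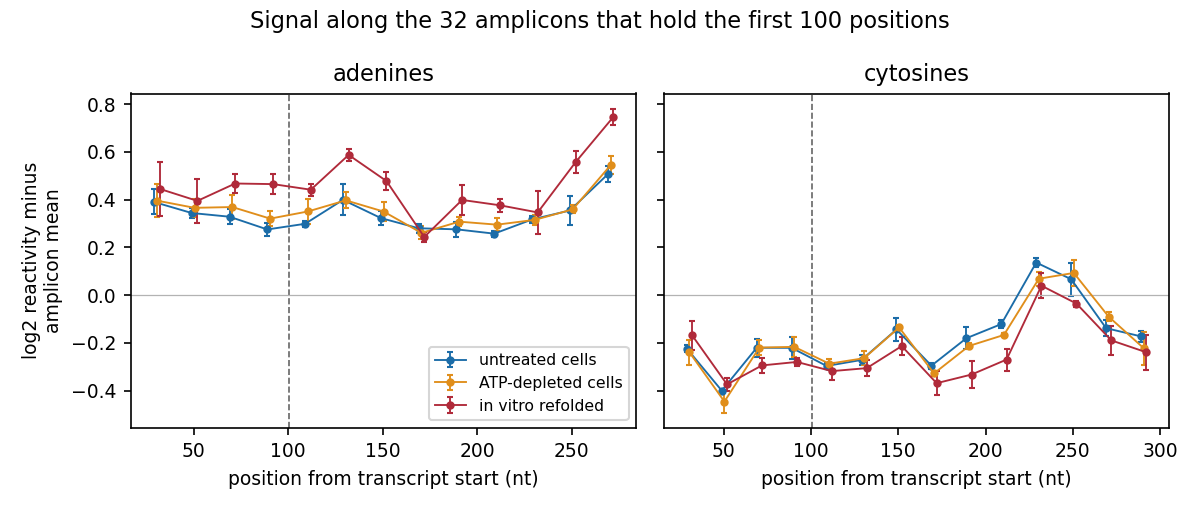
Mean log2 reactivity of A (left) and C (right) minus the mean of their amplicon, in bins of 20 nt along the 32 amplicons that hold the first 100 positions, as the mean and SD of 3 samples per group; the dashed line marks position 100. Cytosines at positions 41 to 60 lie lowest, at -0.40 in untreated cells, and adenines stay above the amplicon mean throughout.

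In bins of 20 nt, relative to the amplicon mean, C was lowest at positions 41 to 60. There the 3 untreated samples were at -0.40, -0.40 and -0.40 on the log2 scale (123 nucleotides), the ATP-depleted samples at -0.45 ± 0.05 and the in vitro samples at -0.37 ± 0.03 (SD, n = 3 each). At positions 61 to 80 the untreated mean for C was -0.22 ± 0.04 and at 81 to 100 also -0.22 ± 0.05 (SD, n = 3 each). Untreated C was lower than that downstream at 101 to 120 (-0.30 ± 0.01), 121 to 140 (-0.27 ± 0.02) and 161 to 180 (-0.30 ± 0.01). It was higher in the other downstream bins, most at 221 to 240 (0.14 ± 0.02) and 241 to 260 (0.07 ± 0.07, SD, n = 3 each). A was above the amplicon mean in each cap-proximal bin, from 0.28 ± 0.03 at positions 81 to 100 to 0.39 ± 0.05 at 21 to 40 in untreated cells (SD, n = 3 each). At positions 81 to 100 in vitro, A stood at 0.47 ± 0.04 (SD, n = 3), with every in vitro sample above every untreated sample. The same lack of overlap was found at 61 to 80 and downstream. It held in each bin for A from 101 to 280 except 161 to 180 and 221 to 240.

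Since reactivities compare only within an amplicon, the first 100 positions were next set against the rest up to position 300 in amplicons that held at least 10 tested nucleotides of both kinds. Values are differences of mean log2(CPM + 3196.78), a scale that understates the differences of weak nucleotides. Over 26 transcripts the mean difference was -0.09, -0.13 and -0.13 in the 3 untreated samples, a mean of -0.12 ± 0.02 (SD, n = 3). It was -0.11 ± 0.02 after ATP depletion and -0.09 ± 0.01 in vitro (SD, n = 3 each), so all 9 samples lay below 0. In untreated cells 17 transcripts were below 0 in all 3 samples and 7 were above 0 in all 3. The size depended on the weak nucleotides: the untreated difference was -0.23 on the deposited log2 values and -0.0015 over the nucleotides at or above the median of the table, where 19 transcripts were left.

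In both in-cell groups the first 100 positions lay furthest below the rest of the amplicon in Ddx6, which encodes a DEAD-box helicase of mRNA decay and P-bodies. Its difference was -0.66, -0.85 and -0.69 in the untreated samples, -0.64, -0.79 and -0.76 after ATP depletion, and -0.42, -0.57 and -0.56 in vitro. The in vitro samples were each above all untreated and ATP-depleted ones. Ppm1b, a protein phosphatase of the PP2C family, followed at -0.50 ± 0.07 in untreated cells and -0.66 ± 0.06 in vitro (SD, n = 3 each), where the in vitro samples were the lower ones without overlap and Ppm1b had the lowest mean of the 26 transcripts. Azin1, an inhibitor of antizyme in polyamine control, was at -0.32 ± 0.05 (SD, n = 3) in untreated cells.

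At the other end stood transcripts whose first 100 positions reacted more than what follows. Fam13b was at 0.25 ± 0.01, Ptp4a2, a phosphatase of the PRL family, at 0.21 ± 0.09 and Ext1, a polymerase of heparan sulfate chains, at 0.14 ± 0.004 in untreated cells (SD, n = 3 each). Ptp4a2 fell to 0.03 ± 0.08 in vitro, with samples at -0.01, 0.12 and -0.02 that all lay below the untreated ones at 0.13, 0.31 and 0.19. Fam13b in vitro ranged from 0.14 to 0.37 and overlapped the untreated samples.

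**Figure D2:**
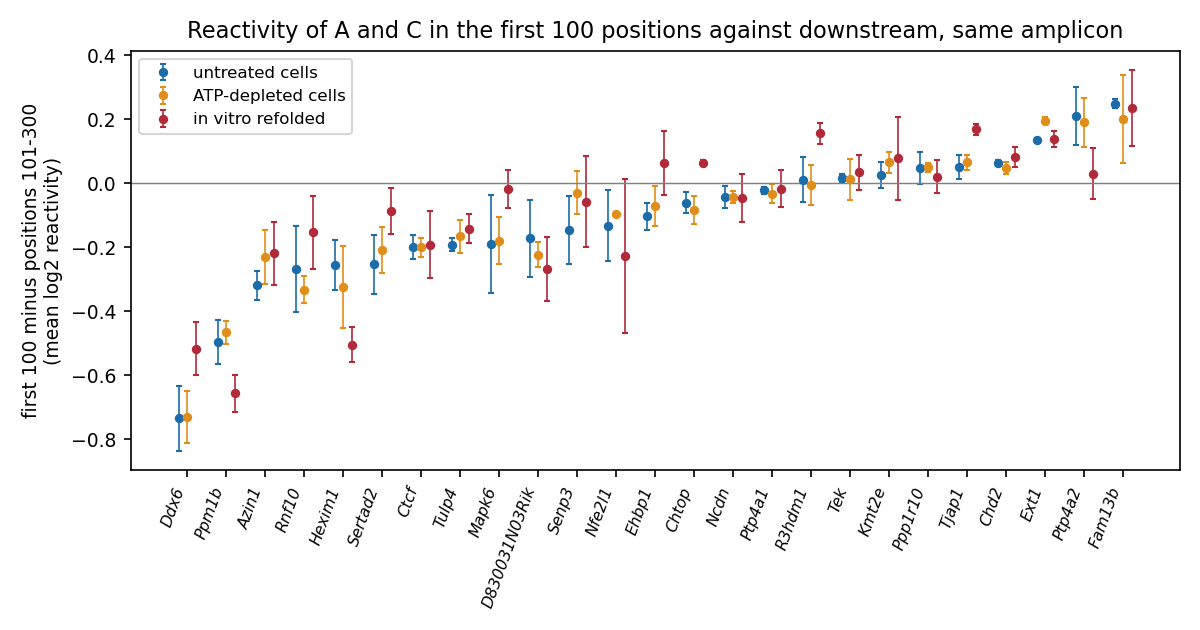
Mean log2 reactivity of A and C at positions up to 100 minus that at positions 101 to 300 of the same amplicon (y axis) for 25 transcripts (x axis), as the mean and SD of 3 samples per group. Transcripts are ordered by the untreated value, from Ddx6 at -0.73 to Fam13b at 0.25, and most lie below 0.

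The cap-proximal nucleotides also lie near the start of their amplicon, a median of 30 nt from the first base read, against 106 nt for the downstream ones. The position in the amplicon was therefore examined in 129 amplicons that lie wholly after position 100, by splitting each after the first 69 bases read. There the first stretch minus the rest was -0.03 ± 0.002 in untreated cells, against -0.11 ± 0.02 for the 27 spanning amplicons taken singly (SD, n = 3 each). For C alone the values were -0.01 ± 0.01 in those later amplicons and -0.14 ± 0.04 in the spanning ones. For A they were -0.05 ± 0.0005 and -0.01 ± 0.01, so near the cap the difference was the larger in C. Without nucleotides within 25 nt of an amplicon end, which left 21 transcripts, the untreated difference over A and C was -0.08. Base composition and distance from the cap were not separated within amplicons, since the matched neighbours above compare medians pooled over amplicons.

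Predicted pairing was set beside the signal. The unpaired probability of each nucleotide was computed with RNAfold at 37 °C from the bases read in its amplicon. The primer sites at the amplicon ends and all sequence outside the amplicon were left out, the bases next to the cap among them. The prediction depends on the stretch folded: Ctcf C97, read in 2 amplicons, had 0.00622 in the first and 0.728 in the second. Its median was 0.394 for the cap-proximal A and C and 0.488 for the downstream ones. For C it was 0.221 against 0.304, and for A 0.837 against 0.792. Across the 819 nucleotides, which share amplicons and are not replicates, reactivity followed the prediction with a Spearman correlation of 0.434 ± 0.0329 in untreated cells, 0.454 ± 0.00860 after ATP depletion and 0.422 ± 0.0163 in vitro (SD over 3 samples). Downstream the correlations were 0.372, 0.396 and 0.373. These values join A and C, which differ in both measures. Within C the correlation was 0.365, 0.369 and 0.348 near the cap and 0.364, 0.392 and 0.356 downstream, in the same order of groups. Within A it was 0.226, 0.298 and 0.216 near the cap and 0.134, 0.141 and 0.139 downstream. Among transcripts, the share of cap-proximal A and C predicted unpaired with a probability over 0.5 was 16.7% in Ppm1b, 19.4% in Ehbp1 and 21.1% in Hexim1, and 67.4% in Ppp1r10.

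Setting ATP-depleted beside untreated cells addresses whether RNA structure in cells needs ATP. limma called 0 of the 819 cap-proximal nucleotides at an adjusted p (Benjamini-Hochberg over the whole table) of 0.05, with 0% called in the whole table. At an unadjusted p below 0.05 there were 34 (4.15%), against 636 of 16178 (3.93%) in the table, and the smallest adjusted p was 0.999943. No other tool was run on nucleotides, and the refits with a replicate block, with limma's trend and robust options and on deposited log2 values also called 0. The median standard error (SE) of a cap-proximal change was 0.18 on the log2 scale, so small changes of single nucleotides could not be detected with 3 samples a group. The absolute change had a median of 0.13, and 90% of the changes lay between -0.40 and 0.38.

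The 3 nucleotides with the lowest unadjusted p are given as values, since none was called. Chd2 encodes a chromatin remodeller, and its A43 had 10614, 8480 and 9825 CPM in untreated cells and 5311, 5769 and 6282 CPM after ATP depletion, a log2 difference of -0.51 ± 0.11 (SE; unadjusted p = 0.00169). In vitro it had 14895, 18259 and 18106 CPM. Chd2 C66, read in the second of 2 amplicons, had 7691, 9709 and 9257 CPM in untreated cells and 6265, 5018 and 6019 CPM after ATP depletion (-0.43 ± 0.10). Azin1 C88 went the other way, from 1912, 1371 and 999 CPM to 5407, 3003 and 3154 CPM (0.60 ± 0.14). Their groups did not overlap, which is what choosing the lowest p values selects for.

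In vitro refolding changed many more nucleotides. Against untreated cells limma called 105 of 819 (12.8%), 57 higher and 48 lower in vitro, where the whole table had 16.3% called, 8.08% higher and 8.18% lower. Downstream 634 of 3664 (17.3%) were called, and 379 of 2461 (15.4%) in the same amplicons. The differences between these shares were not tested. The median SE was 0.18 near the cap, 0.16 downstream and 0.17 in the table, and the median absolute change 0.24, 0.25 and 0.27. The called A were mostly higher in vitro, 30 of 34, and the called C more often lower, 44 of 71. Over all A and C tested, 681 of 958 called A were higher and 1047 of 1673 called C lower. Called nucleotides were found in 27 of the 30 transcripts, most in Ptp4a2 with 15 of 24 entries, then Chd2 with 12 of 55 and Tulp4 with 6 of 31. In Chd2 22 positions were read by 2 amplicons, so that 1 position could give 2 calls. All 5 calls in D830031N03Rik, all 4 in Hexim1 and all 4 in Ppm1b were lower, and all 4 in Ptp4a1 and all 3 each in Ddx6, Ext1 and Tjap1 were higher.

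The amount called depended on depth and on the samples fitted, and the cap-proximal share stayed below that of the table in each setting with a matching background. In amplicons with at least 5000 counts in every library, 97 of 499 (19.4%) were called, against 24.6% of 11498. In a fit of the 6 compared samples alone, 48 of 819 (5.86%) were called, against 8.23%. Leaving out a single sample gave 50 to 92 calls. Without untreated replicate 2 there were 50, and calls in the whole table fell from 2631 to 1394. With the replicate number as a block, 82 were called (10.0%), against 13.5% of the table.

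The 24 cap-proximal A and C of Ptp4a2 held the most calls of any transcript. In the C-rich stretch shown above, C88 had 9761, 13664 and 11109 CPM in untreated cells, 11559, 13468 and 12932 CPM after ATP depletion and 948, 2435 and 2237 CPM in vitro. Every in vitro sample was far below every sample from cells, and the change against untreated cells was -1.54 ± 0.15 (SE; limma adjusted p = 0.000875). C84 went from 8449, 8333 and 8139 CPM in untreated cells to 2278, 969 and 1385 CPM in vitro, a change of -1.29 ± 0.16 (SE; limma adjusted p = 0.00248). C80 went from 10874, 8911 and 9184 CPM to 1719, 3750 and 1953 CPM, again with no overlap (-1.19 ± 0.14). C71 fell from 3278, 4782 and 4070 CPM to 654, 738 and 843 CPM (-0.87 ± 0.11).

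Among these falling bases single ones rose. C74 had 6423, 7980 and 6166 CPM in untreated cells and 20019, 20229 and 16628 CPM in vitro, an increase of 1.14 ± 0.12 (SE; limma adjusted p = 0.00139). C91, next to the falling C90 (-1.13 ± 0.17), rose from 11639, 14383 and 11032 CPM to 27038, 31475 and 17240 CPM (0.84 ± 0.20). C71, C90 and C91 were picked after their values were seen. RNAfold gave the falling C71, C80, C84, C88 and C90 unpaired probabilities of 0.945, 0.566, 0.165, 0.472 and 0.492. The rising C74 and C91 had 0.541 and 0.542. All of the called bases of the stretch were without overlap between in vitro and untreated samples. The amplicon was among the deepest, with at least 107298 counts in every library. C74, C80, C84 and C88 kept their call in each alternative that could be fitted.

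**Figure D3:**
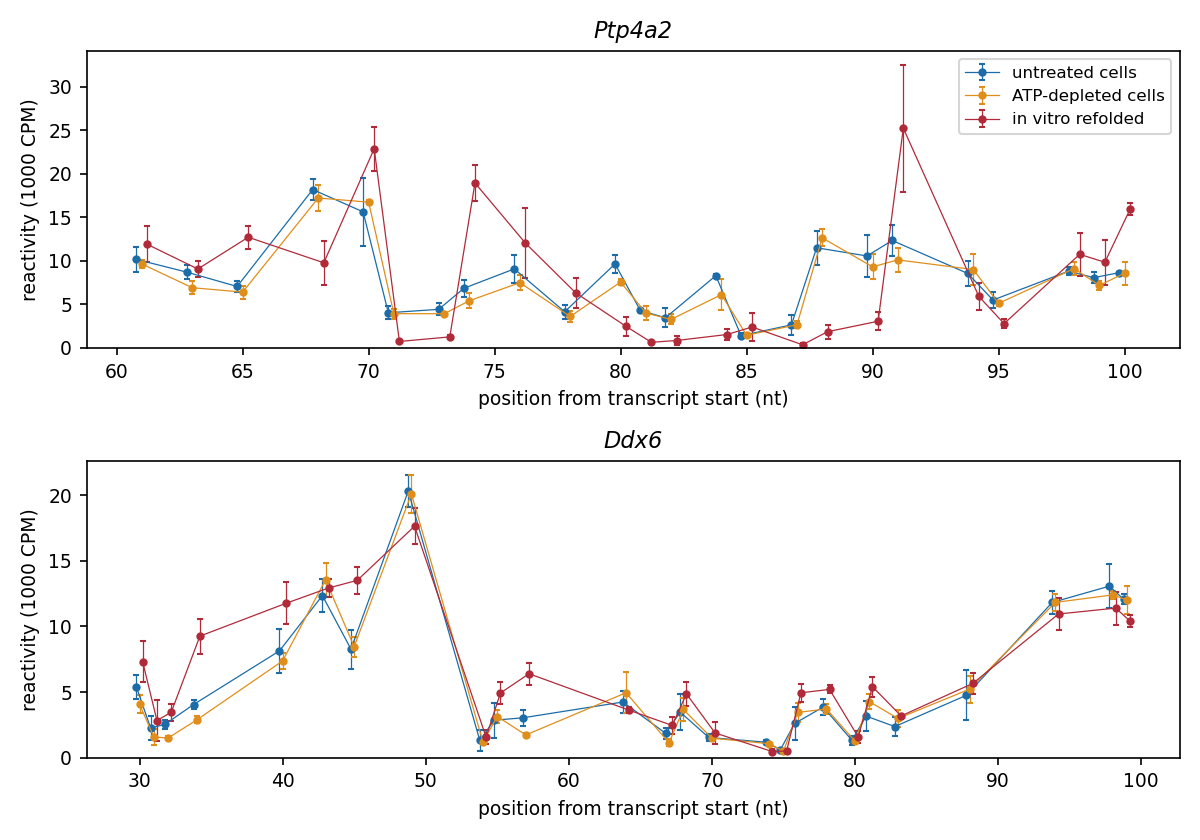
Reactivity in 1000 CPM (y axis) of each measured A and C along the first 100 positions (x axis) of Ptp4a2 and Ddx6, as the mean and SD of 3 samples per group. In Ptp4a2 the in vitro profile drops near 0 at most bases between 80 and 90 and has peaks at 70, 74 and 91. Its untreated and ATP-depleted profiles run together. In Ddx6 the in vitro values are higher at 34, 45 and 57.

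Other single nucleotides changed as strongly in shallower amplicons. Mapk6, also named ERK3, an atypical MAP kinase, had 10831, 11352 and 12242 CPM at A89 in untreated cells and 31813, 35717 and 32377 CPM in vitro, with ATP-depleted cells at 12144, 11599 and 12214 CPM. The increase was 1.31 ± 0.09 (SE; limma adjusted p = 0.000240), and the groups were far apart. Tulp4, a tubby-like protein, had 2882, 2064 and 3714 CPM at A93 in untreated cells and 12014, 8521 and 8708 CPM in vitro (1.09 ± 0.14; limma adjusted p = 0.00279). RNAfold gave A93 a low unpaired probability, 0.0165, and A89 of Mapk6 a high one, 0.950. Both kept their call in each alternative that could be fitted.

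Sertad2, a transcriptional coregulator, had 4700, 5366 and 5597 CPM at C73 in untreated cells and 31888, 23775 and 8419 CPM in vitro. The increase of 1.40 ± 0.40 (SE; limma adjusted p = 0.0484) was the largest among the named rises, but in vitro replicate 3 was much lower than the other 2. Its call was lost in 15 of 20 alternatives, with limma adjusted p from 0.00807 to 0.117. Fam13b C41 rose from 9148, 7093 and 8881 CPM to 32521, 34079 and 11796 CPM (1.23 ± 0.33; limma adjusted p = 0.0375), also with a low replicate 3. It lost its call in 11 of 19, including the replicate block (limma adjusted p = 0.0735), where Sertad2 C73 had an adjusted p of 0.0897.

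Fam13b C21 was the strongest of the named nucleotides in cells, at 73786, 92512 and 74197 CPM, and had 54958, 23673 and 29920 CPM in vitro (-1.15 ± 0.27; limma adjusted p = 0.0247). Ehbp1 links endocytic trafficking to actin. Its A26 had 9406, 12864 and 12935 CPM in untreated cells and 3642, 1353 and 6670 CPM in vitro (-1.14 ± 0.26; limma adjusted p = 0.0226), from as few as 4 counts. RNAfold gave Fam13b C21 an unpaired probability of 0.000645 and Ehbp1 A26 one of 0.00425. With the replicate block the call at Fam13b C21 was lost, and that at Ehbp1 A26 was kept.

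In Ctcf, the insulator protein, the A of a repeat rose while 2 C upstream of it fell. The stretch from 78 to 97 holds 3 copies of AGC in a row, and it was chosen after its values were seen. A83 rose from 10569, 12465 and 13055 CPM in untreated cells to 20073, 22281 and 19025 CPM in vitro (0.64 ± 0.10), and A86 (0.32 ± 0.09) and A89 (0.47 ± 0.12) rose too. C81 fell from 6691, 5809 and 5599 CPM to 3172, 1231 and 2614 CPM (-0.75 ± 0.17) and C78 fell by 0.38 on the log2 scale. RNAfold gave the 3 A unpaired probabilities of 0.998, 0.970 and 0.999 and the 2 C 0.0124 and 0.0100. The C of the repeat, C85, C88 and C91, were not called (-0.09 ± 0.11, 0.31 ± 0.20 and -0.34 ± 0.14). Their unpaired probabilities were 0.0137, 0.263 and 0.0290. C82, directly before the repeat, and A80 were not called either (-0.25 ± 0.16 and -0.08 ± 0.16), at unpaired probabilities of 0.0168 and 0.986. Against ATP-depleted cells A83, A89, C78 and C81 were called in the same direction, and A86 was not (limma adjusted p = 0.0517).

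Against ATP-depleted cells the in vitro samples gave the counts 101 of 819 (12.3%), 60 higher and 41 lower, where the whole table had 14.9% called, 8.31% higher and 6.56% lower. Downstream the count was 578 of 3664 (15.8%). Both comparisons use the same 3 in vitro samples, so the second does not stand as independent of the first. The largest rises were those of Sertad2 C73 (1.80 ± 0.40), Ptp4a2 C74 (1.36 ± 0.12) and Tulp4 A93 (1.36 ± 0.14), and the largest falls those of Ptp4a2 C88 (-1.66 ± 0.15), Fam13b C21 (-1.22 ± 0.27) and Ehbp1 A26 (-1.05 ± 0.26). The Sertad2 call was lost in 6 of 20 alternatives, the replicate block among them (limma adjusted p = 0.0504, with a range from 0.00467 to 0.0669 over the alternatives). That of Fam13b C21 was lost in 4 of 19 and that of Ehbp1 A26 in 7 of 19, and the other 3 kept theirs in each alternative that could be fitted. Without ATP-depleted replicate 2 the count was 46, and calls in the whole table fell from 2406 to 1007.

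The mean signal of the first 100 positions was compared next. Of 27 amplicons with at least 10 measured nucleotides there, 6 (22.2%) were called between in vitro and untreated samples, 2 higher and 4 lower in vitro. Of all 429 windows of 100 nt, 15.6% were called, 6.53% higher and 9.09% lower. Hexim1, an inhibitor of the elongation factor P-TEFb, was lower, with untreated window means of 12.85, 12.88 and 12.89 on the log2 scale and in vitro means of 12.68, 12.59 and 12.58, a change of -0.26 ± 0.06 (SE; limma adjusted p = 0.0167). Its ATP-depleted samples, at 12.71, 12.76 and 12.94, lay above the in vitro ones. In the Hexim1 stretch shown above, C85, C86, C90 and C91 were all called lower in vitro than in untreated cells, C86 going from 3084, 7318 and 5600 CPM to 1325, 668 and 1306 CPM. Its ATP-depleted samples, at 2521, 2890 and 1893 CPM, lay between the other groups. Against ATP-depleted cells only C85 of the 4 was called, and C86, C90 and C91 had limma adjusted p of 0.198, 0.202 and 0.164. These 4 C were chosen after their values were seen.

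The means of Ptp4a2 (-0.23 ± 0.05), D830031N03Rik (-0.21 ± 0.04) and Ppm1b (-0.15 ± 0.04) were also lower in vitro, that of D830031N03Rik from as few as 695 counts. Ddx6 (0.18 ± 0.05) and Chtop (0.10 ± 0.03), an mRNA export factor, were higher, both with a limma adjusted p of 0.0483. Their calls were lost in 14 of 21 and 16 of 20 alternatives. That of Ppm1b (limma adjusted p = 0.0492) was lost in 13 of 21, with 1 more reversed. Hexim1 lost its call in 2 of 19, D830031N03Rik in 2 of 18 and Ptp4a2 in 8 of 21. In Ddx6 the rise included A34, at 3916, 3826 and 4434 CPM in untreated cells and 9736, 10302 and 7751 CPM in vitro, and also C45 and C57. These 3 bases were likewise picked after their values were seen. Without untreated replicate 2 none of the 27 windows was called, and called means in the whole table fell from 67 to 19. In the fit of the 6 compared samples 2 were called, and 36 in the whole table.

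Against ATP-depleted cells 7 of 27 window means (25.9%) were called, 5 higher and 2 lower, with 21.7% called in the table, 14.9% higher and 6.76% lower. Ddx6, Tulp4, R3hdm1, Tjap1 and Chtop were higher in vitro by 0.21, 0.16, 0.15, 0.11 and 0.11, and Hexim1 and D830031N03Rik lower (-0.19 and -0.14). R3hdm1 holds an RNA-binding R3H domain and Tjap1 is a tight junction protein. Without ATP-depleted replicate 2 none was called, and called means in the whole table fell from 93 to 25. Between ATP-depleted and untreated cells limma called 0 of 27, with 0% in the table and 0 at an unadjusted p below 0.05.

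Within the first 100 positions the signal became more uneven in vitro. The Gini coefficient, which is 0 when all nucleotides react alike and rises as the signal gathers on fewer, had a median over the 27 windows of 0.352, 0.355 and 0.361 in untreated cells, 0.395, 0.345 and 0.353 after ATP depletion and 0.473, 0.481 and 0.419 in vitro. The in vitro samples were above all others. Of the 27 windows 14 were called against untreated cells, 13 of them higher, where 67.8% of all windows were called, 65% higher and 2.8% lower. Of the 93 windows at positions 101 to 300 in the same transcripts, 69 (74.2%) were called. The cap-proximal windows held a median of 31 nucleotides against 42, and their median SE was 0.0223 against 0.0205. The part of these differences in the lower count was not tested.

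Ptp4a2 had the largest rise, from 0.279, 0.286 and 0.258 in untreated cells to values between 0.478 and 0.519 in vitro (0.225 ± 0.0146, SE; limma adjusted p = 1.19e-05). Hexim1 rose from 0.418 to 0.610 (0.192 ± 0.0364), Ctcf from 0.336 to 0.509 (0.172 ± 0.0183) and Azin1 from 0.350 to 0.521 (0.171 ± 0.0226), all without overlap between in vitro and untreated samples. Ddx6 was the only called window with a fall, from 0.469, 0.495 and 0.412 to 0.382, 0.398 and 0.407 (-0.0631 ± 0.0206; limma adjusted p = 0.0242). Taken over C alone, the Ddx6 change was 0.0410, in the opposite direction. Without untreated replicate 2 the number called fell to 8, and that in the whole table from 291 to 245. The windows called lower in mean against untreated cells, Hexim1, Ptp4a2, D830031N03Rik and Ppm1b, were each called higher in Gini coefficient. Of those called higher in mean, Ddx6 was called lower in Gini coefficient and Chtop was not called. How far the means follow the unevenness was not tested.

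**Figure D4:**
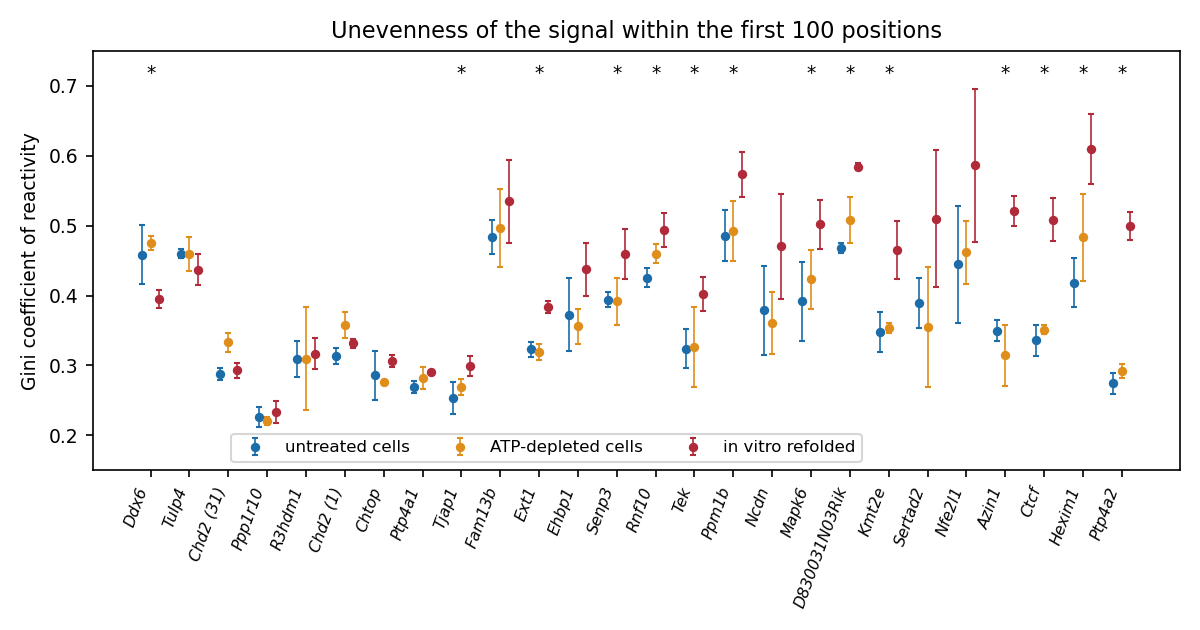
Gini coefficient of reactivity over A and C of the first 100 positions (y axis) in 26 amplicons (x axis, with the amplicon start for the pair in Chd2), as the mean and SD of 3 samples per group, ordered by the change from untreated cells to in vitro. Asterisks mark the 14 amplicons called by limma against untreated cells, and of these only Ddx6 is lower in vitro.

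Against ATP-depleted cells 14 of 27 Gini coefficients were called, 12 of them higher in vitro, with 70.4% called in the table, 67.1% higher and 3.26% lower. The largest rises were in Ptp4a2 (0.207 ± 0.0146), Azin1 (0.206 ± 0.0226), Ctcf (0.157 ± 0.0183) and Sertad2 (0.155 ± 0.0553). Ddx6 (-0.0791 ± 0.0206) and the second Chd2 amplicon (-0.0402 ± 0.0124) were lower. Between the 2 in-cell groups limma called 0 of 27, with 0% in the table and 3 at an unadjusted p below 0.05.

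Whether the first 100 positions moved apart from their neighbours was tested on the difference between the window mean and that of positions 101 to 200 in the same amplicon. Of 27 differences 6 were called between in vitro and untreated samples, where 23.1% of all 268 such pairs of adjacent windows were, 11.2% higher and 11.9% lower. In Sertad2 the difference went from -0.38, -0.18 and -0.26 in untreated cells to -0.08, 0.01 and -0.003 in vitro (0.25 ± 0.06, SE; limma adjusted p = 0.0130). The in vitro samples were all higher. Ddx6 (0.22 ± 0.07), Rnf10 (0.19 ± 0.04), a RING-type ubiquitin ligase, Chtop (0.18 ± 0.04) and Ehbp1 (0.18 ± 0.05) were higher too. In these the cap-proximal mean log2 signal thus rose relative to that of the next 100 nt. Ppm1b was lower (-0.15 ± 0.05). Without untreated replicate 3 or in vitro replicate 3, the number called was 3. In the whole table it was 44 and 63, in that order, and 62 in the main fit.

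Against ATP-depleted cells 7 of 27 differences were called, with 26.1% in the table, 12.3% higher and 13.8% lower. Chtop (0.24 ± 0.04), Ddx6 (0.23 ± 0.07), Rnf10 (0.22 ± 0.04), Sertad2 (0.18 ± 0.06) and the first Chd2 amplicon (0.11 ± 0.03) were higher in vitro, and Ppm1b (-0.18 ± 0.05) and Ext1 (-0.08 ± 0.03) lower. Ext1 had 0.20 to 0.22 in untreated cells, 0.25 to 0.27 after ATP depletion and 0.16 to 0.19 in vitro. Without any 1 of the ATP-depleted or in vitro replicates 2 to 4 differences were called, or 3 without untreated replicate 3. In the whole table it was 28 to 48, or 55 without untreated replicate 3, and 70 in the main fit. Between ATP-depleted and untreated cells limma called 0 of 27, with 0% in the table and 0 at an unadjusted p below 0.05.

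The 22 Chd2 positions read by both amplicons gave a repeat measurement within the same RNA samples. The log2 change between in vitro and untreated samples correlated at 0.857 between the readings, that between in vitro and ATP-depleted at 0.932 and that between ATP-depleted and untreated at 0.760 (Pearson, 22 positions, which share samples). The sign was the same in both readings at 16, 21 and 17 of the 22 positions, in that order. C56, for example, changed by 0.47 and 0.42 between in vitro and untreated samples and by -0.05 and -0.37 between ATP-depleted and untreated ones.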

How the data were processed

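The authors deposited 1 log2 value for each nucleotide and sample, beside transcript names and amplicon bounds. The submitters' processing notes name bcl2fastq, Bowtie2 and limma, without versions, and neither the mutation counter nor the genome build is given in the sources used here. Each value deposited by the authors equalled log2 of a whole number plus 0.5, per 1000000 of a library size, and these whole numbers could be recovered, to within 0.0001, in each of the 1449 libraries of an amplicon and sample. They are taken to be mutation counts, and the coverage per position is not known.

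Values were returned to CPM and tested as log2(CPM + 3196.78), where the pseudocount is 0.5 times the median over all A and C, 6393.56, with limma 3.58.1 in R 4.3.3. The fit used all 9 samples and all 16178 A and C with a count (of 16187), a mean per group, two-sided tests, Benjamini-Hochberg adjustment over the table and a threshold of 0.05. Windows of 100 nt needed 10 tested nucleotides. The test was planned for linear values, and the unit proved to be log2. The scripts were tested on simulated data. Groups came from the sample titles. Pairing was predicted with RNAfold 2.7.2.

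Nucleotides were named by rule among calls without overlap and with at least 1000 counts in each compared library, as the 5 largest rises and 5 largest falls (3 and 3 against ATP depletion) or, with no call, the 3 lowest p. Windows named were all called means, the 4 largest called changes each way in the other measures, and the 3 highest and 3 lowest transcripts. Ehbp1 and the first Chd2 amplicon, given for their difference to the next window, lie outside this rule. They are not among the 51 named calls that were refitted. The nucleotides, lists and comparisons were chosen with earlier results of these data known. Same-numbered replicates of different groups correlated at -0.02 to 0.10 in their deviations from the group mean, and 8 of 9 samples correlated best with their own number. The numbers share no known origin and were not taken to pair samples in the main fit. Alternatives covered pseudocounts, filters, scalings, A or C alone, amplicon ends, depth, limma options, leaving out each replicate and a replicate block. Results of 1 transcript are not reported here singly, though it is part of the counts and means.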

Additional observations from a re-analysis of the deposited data

Results flagged for a closer look

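Signal was also present on bases outside the A and C comparisons. In untreated cells the 317 T (U in RNA) at positions up to 100 had a median of 3531 ± 412 CPM (SD, n = 3), with 96.6% of values above the 3 counts that a count of 0 allows, and the 603 G had a median of 729 ± 16.3 CPM, with 81.4% above it. After ATP depletion the medians were 3733 ± 422 CPM for T and 788 ± 51.3 CPM for G, and in vitro 3198 ± 93.5 and 763 ± 31.7 CPM (SD, n = 3 each). The T median was close to the 4234 CPM of cap-proximal C in untreated cells. No sample without DMS was analysed here, and the source of this signal was not tested.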

How the results depend on the processing

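The difference between the first 100 positions and the rest of the spanning amplicons moved most with the weight of weak nucleotides. In untreated, ATP-depleted and in vitro samples, in that order, it was -0.19, -0.18 and -0.15 with a pseudocount of 0.1 times the median, -0.0819, -0.0757 and -0.0589 with 1 times the median, and -0.23, -0.23 and -0.21 on the deposited log2 values. It was -0.0015, 0.0213 and -0.0015 over nucleotides at or above the median, -0.0325, -0.0179 and -0.0051 over A alone, and -0.0764, -0.0560 and -0.0635 without 25 nt at each amplicon end. Over C alone it was -0.15 in untreated and -0.15 in ATP-depleted samples, and in amplicons with at least 5000 counts -0.0780 in vitro. Leaving out a replicate gave -0.13 to -0.11, -0.12 to -0.10 and -0.09 to -0.08.

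Counts against untreated and then ATP-depleted cells follow. Nucleotides called were 34 and 29 over A alone, 57 and 58 at or above the median, and 54 and 54 without amplicon ends, settings that test fewer nucleotides, and 48 against untreated cells with the 6 compared samples. Called window means were 3 and 4 of 13 tested over A alone and 2 and 2 of 27 with the 6 samples. Against untreated cells they were 2 of 27 with a pseudocount of 1 times the median and 2 of 22 without ends. Called Gini coefficients were 5 and 5 of 13 over A alone, 7 and 9 of 25 over C alone and 5 and 6 of 20 at or above the median. Against untreated cells 9 of 17 were called in amplicons with at least 5000 counts, and 14 of 27 in the main fit. Called differences to the next window were 1 and 2 of 12 over A alone and 3 and 4 of 27 with thinned counts.

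Leaving out a replicate gave 50 to 92 and 46 to 100 nucleotides, 0 to 4 and 0 to 6 means, 8 to 15 and 8 to 16 Gini coefficients, and 3 to 6 and 2 to 6 differences. At the lowest nucleotide counts, calls in the whole table fell too, from 2631 to 1394 and from 2406 to 1007. At the lowest counts of means they fell from 67 to 19 and from 93 to 25. Cap-proximal nucleotide counts fell by over 1.5 times without any 1 replicate of the in-cell group compared. Called means fell so without each replicate but untreated replicate 1 in the first comparison, and without each ATP-depleted replicate, untreated replicate 2 and in vitro replicates 1 and 2 in the second. Called Gini coefficients fell so without untreated replicate 2 in the first, and without ATP-depleted replicates 2 and 3 and in vitro replicate 1 in the second. All counts between ATP-depleted and untreated cells stayed at 0.

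With the replicate block the counts were 82 and 85 nucleotides, 7 and 8 means, 15 and 16 Gini coefficients and 6 and 6 differences, and 8 of 51 named calls were lost. The numbers share no known origin, though 8 of 9 samples correlated best with their own number, a hint from the data and not the design.

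Of 1020 refits of the 51 named calls, 747 kept their direction and call, 265 lost the call and 8 reversed. The 3 nucleotides named without a call got none. Over nucleotides at or above the median the Ppm1b mean was 0.000913 and the Chtop difference to the next window -0.0215 (against untreated cells), and the Gini change of the second Chd2 amplicon 0.0271 (against ATP-depleted cells), or 0.0551 without amplicon ends. Over C alone the Ddx6 Gini change was 0.0410 and 0.0222 and the Tulp4 mean -0.0503 (against ATP-depleted cells). The Ext1 difference was 0.0702 on deposited log2 values. The cause was not tested. Depth limits the in vitro values most, with member amplicons as low as 235 counts.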
